A study of Mus musculus with 18 samples.

Results

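Hdac2 and Sirt1 are the deacetylase genes examined here on a custom array of Polycomb and Trithorax group genes. They were chosen by symbol and are 2 of the 64 genes of the array, with 4 of its 117 gene spots. The RNA came from mesenchymal stem cells that were isolated from inguinal fat of FVB mice at 1, 3, 6, 12 or 24 months of age and cultured in high-glucose medium to no later than the 5th passage. The ages have 4, 3, 3, 3 and 2 samples, 15 in all, and 18 arrays, because 3 samples were hybridised on 2 arrays. The labels name no treatment and no genotype beyond the strain, and give each sample as cells of a mouse. They do not say whether mice shared a litter or cells were pooled, so the p-values measure the spread between these cultures, which may be technical.

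HDAC2 is a zinc-dependent class I deacetylase that removes acetyl groups from histone tails as the catalytic subunit of the Sin3, NuRD and CoREST repressor complexes. SIRT1 belongs to the sirtuins, which need NAD+ as a co-substrate and so link deacetylation to the metabolic state of the cell, and it acts on histones and on regulators such as p53, FOXO proteins and PGC-1α. Both enzymes have been studied in the differentiation of mesenchymal stem cells, where SIRT1 is known for restraining fat storage in adipocytes and both are known from work on cellular ageing.

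The arrays fall into 2 sets by their names and their order in the sheets. The second set holds 6 arrays of 6 samples (3 at 1 month, 1 at 12 months, both at 24 months), and the first holds 12 arrays of 11 samples, among them every 3-month and 6-month sample. Only 1 and 12 months lie in both sets, and replicates 1 and 8 of 1 month were hybridised once in each. The median gene spot of an array read 8286 to 18946 pixel units in the second set and 10099 to 33357 in the first, with 23 to 37 and 29 to 39 genes called present, and the 5 housekeeping genes read 62211 to 62848 and 62437 to 63199. The number of arrays limits the precision. No marker of mesenchymal stem cells or of adipocytes is on the array, so the cell type could not be checked. Of the markers of other cells that are on it, 3 of blood and 1 of endothelium were detected in 0 of 15 samples and 1 of epithelium in 1.

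Hdac2, annotated on the array with the transcript NM_008229, has an upper spot at position 19 and a lower one at position 75. Both were called present on 18 of 18 arrays. Its mean pixel signal was 37781 to 59976 in the second set and 46372 to 61235 in the first at the upper spot, against 38823 to 59852 and 51600 to 61450 at the lower. These signals reach 97.9% of the housekeeping signal. The authors' sheets mark the upper spot as bleeding, their sign of saturation, on 0 of 6 arrays of the second set and 5 of 12 of the first, and the lower spot on 0 and 6. Hdac2 was therefore read close to the top of the scale on many arrays of the first set, and on no age was every array marked.

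Sirt1, annotated with NM_019812, has spots at positions 20 and 76. Each comes directly after an Hdac2 spot (19 and 75), and the bleeding marks of Hdac2 all lie in the first set. Whether signal of the Hdac2 spots spread into the Sirt1 spots was not tested. At the upper spot the second set read 14353, 12905 and 16102 pixel units at 1 month, 6145 at 12 months, and 23630 and 13036 at 24 months. At that spot the first set read 37852, 42066 and 55328 at 1 month, 47990, 41676 and 26869 at 3 months, 38955, 13666 and 34174 at 6 months, and 29302 and 20266 (the same sample) and 17756 at 12 months. The first set began at 13666, on a 6-month array, so 3 of the 6 arrays of the second set (14353, 16102 and 23630) lay inside its range and the others below it. The 14353, of 1-month replicate 1, is a mean over a small spot of 53 pixels. For a difference between the ages of such cultures, fewer cells with the transcript and less of it per cell cannot be told apart.

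The lower Sirt1 spot separated the sets on every array. It read 8825, 8678 and 10956 at 1 month, 9430 at 12 months, and 7384 and 6365 at 24 months in the second set. In the first set it ran from 14882 at 6 months to 56533 at 1 month, with a median of 37829 over 12 arrays. All 6 readings of the second set lay below all 12 of the first.

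**Figure D1:**
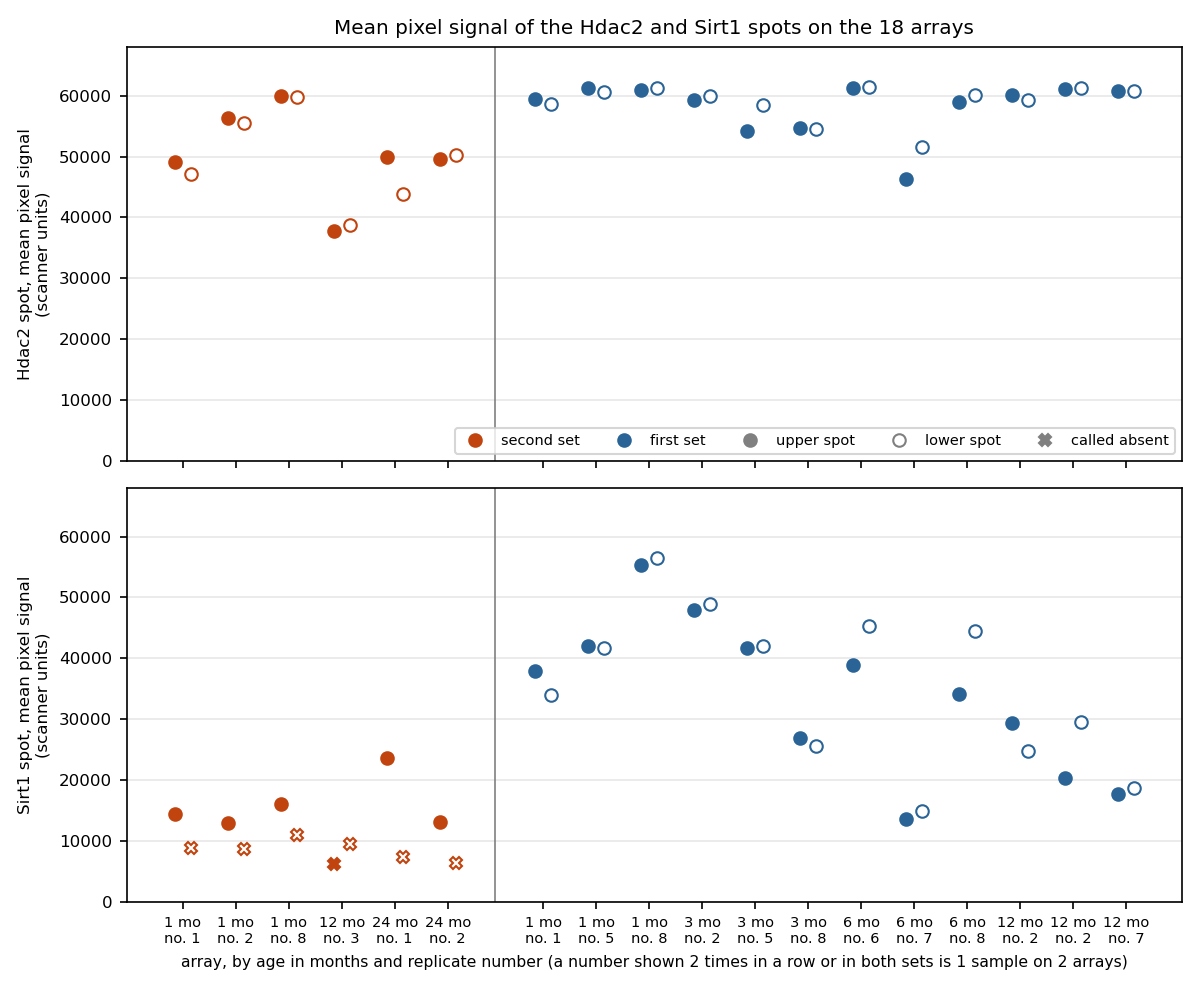
Mean pixel signal (scanner units, y axis from 0) of the upper spots (filled) and lower spots (open) of Hdac2 and Sirt1 on each array (x axis, by age and replicate number), with the second set left of the line and the first set right of it, and crosses for spots called absent. Hdac2 lies at 37781 or above on every array, while the lower Sirt1 spot stays at 10956 or below in the second set and at 14882 or above in the first.

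The presence calls of Sirt1 followed the sets. The upper spot was called present on 5 of 6 arrays of the second set and 12 of 12 of the first, and the lower spot on 0 of 6 and 12 of 12. Counting a gene as detected where 50% or more of its spots had a present call, Sirt1 was found in 14 of 15 samples. The exception was 12-month replicate 3, hybridised only in the second set, where both spots were called absent, so its Sirt1 level there is only an upper limit.

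The spots of Sirt1 also disagreed with each other in the second set. On the normalised log2 scale they differed by 0.80 to 2.29 there, with a median of 1.48 over 6 arrays, and by 0.05 to 0.77 in the first set, with a median of 0.20 over 12 arrays. Over the 34 tested genes with a pair of spots, the median difference was 0.32 in the second set and 0.21 in the first, and Sirt1 ranked 5 of 34 and 21 of 34 by the size of its own. Hdac2 spots differed by a median of 0.03 in both sets. The upper Sirt1 spot of 1 array of the second set (1 month, replicate 1) covered 53 pixels, against 112 for the lower spot of that array.

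Normalised levels were the log2 mean pixel signal after quantile normalisation over gene spots, with the mean taken first over a gene's spots and then over the arrays of a sample. Hdac2 stood at 15.61, 15.67, 15.69 and 15.71 at 1 month, 15.67, 15.65 and 15.46 at 3 months, 15.72, 15.51 and 15.73 at 6 months, 15.72, 15.53 and 15.75 at 12 months, and 15.59 and 15.61 at 24 months. The ages overlapped throughout, and the whole range over 15 samples was 0.28. This range holds after quantile normalisation. Before it, the mean pixel signal of the samples ran from 38302 (12-month replicate 3) to 61332 (6-month replicate 6). The normalisation placed the 38302 at 15.53, above 3-month replicate 8 at 15.46, whose signal was 54596. The SD of Hdac2 over the samples was 0.09, rank 29 of 38 tested genes, whose median SD was 0.46.

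Sirt1 stood at 13.82, 13.33, 14.62 and 14.09 at 1 month, 14.91, 15.08 and 14.39 at 3 months, 14.76, 14.11 and 14.79 at 6 months, 14.08, 13.21 and 13.54 at 12 months, and 13.45 and 12.96 at 24 months. By mean the ages ran in the order 3 months (14.79 ± 0.36, SD, n = 3), 6 months (14.55 ± 0.39, n = 3), 1 month (13.97 ± 0.54, n = 4), 12 months (13.61 ± 0.44, n = 3) and 24 months (13.21 ± 0.35, n = 2). Each age overlapped its neighbours in this order. The samples of 24 months all lay below those of 3 and 6 months, as they did for 6 of 38 tested genes (15.8%), and those of 12 months did so as well, as for 1 of 38 genes (2.63%), Sirt1 itself. For 12 months the gap was 14.08 against 14.11, 1 array of replicate 2 read 14.34, and replicate 3 had no present call. The 3-month and 6-month arrays belong to the first set and the 24-month arrays to the second, so for 24 months age and set cannot be told apart in this comparison.

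**Figure D2:**
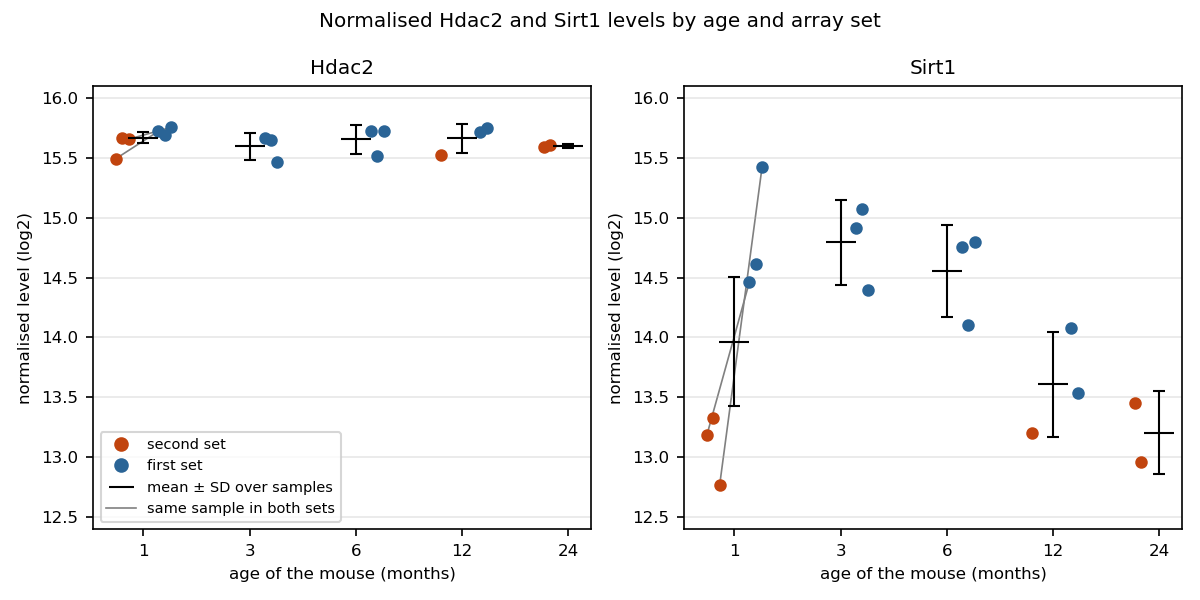
Normalised level (log2, y axis) of Hdac2 and Sirt1 by age (x axis, months), with a point for each sample in the second set (left) and the first set (right), the mean ± SD over samples in black and grey lines between the arrays of a sample that is in both sets. Sirt1 at 1 month reads 12.76 to 13.33 in the second set and 14.46 to 15.42 in the first, while all Hdac2 points lie between 15.46 and 15.76.

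Differences between ages were tested with limma over all 38 genes detected in at least 2 samples. Hdac2 did not pass the F-test over the 5 ages (limma adjusted p = 0.974). Sirt1 ranked 4 of 38 by p and did not pass either (limma adjusted p = 0.0781). No gene passed it, 0 of 38 (0%), and 13 had an unadjusted p under 0.05.

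Against 1 month, Sirt1 differed by 0.83 at 3 months (SE 0.33, 95% interval 0.11 to 1.55, limma adjusted p = 0.327), by 0.59 at 6 months (SE 0.33, interval -0.13 to 1.31, limma adjusted p = 0.316), by -0.36 at 12 months (SE 0.33, interval -1.08 to 0.36, limma adjusted p = 0.997) and by -0.76 at 24 months (SE 0.37, interval -1.58 to 0.06, limma adjusted p = 0.321), all in log2 units. None passed. Over all samples limma called 0 of 38 genes (0%) at 3, 12 and 24 months (5, 2 and 6 had an unadjusted p under 0.05) and 1 of 38 (2.63%) at 6 months, Sbf1 (0.12).

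Hdac2 differed from 1 month by -0.07 at 3 months (interval -0.23 to 0.08), -0.01 at 6 months (-0.17 to 0.14), -0.00 at 12 months (-0.16 to 0.15) and -0.07 at 24 months (-0.25 to 0.11). None passed, and no interval reached beyond 0.25 in size, on a scale where the readings sit near the top. Per doubling of age the slope was -0.01 (SE 0.01) for Hdac2 and -0.16 (SE 0.10, interval -0.38 to 0.07, limma adjusted p = 0.620) for Sirt1, and limma called 0 of 38 genes (0%). An unadjusted p under 0.05 was reached by 4 of them.

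Between the sets, Sirt1 was lower in the second. Its arrays read 13.18, 13.33 and 12.76 at 1 month, 13.21 at 12 months, and 13.45 and 12.96 at 24 months in the second set, against 13.54 to 15.42, with a median of 14.54, on the 12 arrays of the first. By the mean of the spots, every array of the second set lay below every array of the first, as for 4 of 38 genes (10.5%): Arid1a, Ezh1, Phc2 and Sirt1. Taken singly, the Sirt1 spots overlapped between the sets on this scale. The upper spot read 14.58 on a 24-month array of the second set and 13.43 on a 12-month array of the first. The lower spot, called absent throughout the second set, read 14.15 on its 12-month array and 13.65 on 1 of the first. With age as a term and the sample as a random block, the difference (second set minus first set) was -1.40 (SE 0.28, 95% interval -2.01 to -0.79, limma adjusted p = 0.00272), which rests on the 1-month and 12-month arrays because no other age has both sets. In this comparison limma called 9 of 38 genes (23.7%), 5 of them lower in the second set (13.2%), and Sirt1 ranked 4 by p and 4 by size.

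The other genes called lower in the second set were Arid1a (-1.97), which encodes a DNA-binding subunit of SWI/SNF remodellers, Ezh1 (-1.52), a histone H3 lysine methyltransferase of Polycomb repressive complex 2, Phc2 (-0.78), a polyhomeotic subunit of Polycomb repressive complex 1, and Smarca2 (-0.46), a SWI/SNF ATPase. Those called higher were Ncl (0.59), which encodes the nucleolar protein nucleolin, Smarcc2 (0.53), a core subunit of SWI/SNF, Mll1 (0.36), a histone H3 lysine methyltransferase of the Trithorax group, and Eed (0.27), a core subunit of Polycomb repressive complex 2. This split of 5 lower and 4 higher depends on the scaling: it was 10 and 0 with housekeeping scaling, 4 and 17 with median centring, 16 and 0 with the authors' ratios over 32 genes, and 2 and 1 with the local background. Sirt1 and Arid1a were called lower in each of these 4, whereas Ezh1 missed with the local background, Phc2 and Smarca2 missed with the local background and with median centring, and Ncl, Smarcc2, Mll1 and Eed passed in 1 of the 4, median centring. The upper Sirt1 spot alone, present on 5 of the 6 arrays of the second set, gave -1.39. The lower spot gave -1.41, but it was called absent on all 6, so its level there is only an upper limit and neither this value nor its share in the -1.40 is exact. Without the spots under 95 pixels in area, a setting chosen after the small spot was seen, the difference was -1.53.

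The 2 samples that were hybridised in both sets show the difference within 1 RNA sample. For 1-month replicate 1, Sirt1 read 13.18 on the array of the second set and 14.46 on that of the first, a difference of -1.28, the 3rd lowest of 38 genes. For 1-month replicate 8 it read 12.76 and 15.42, a difference of -2.66, the lowest of 38 genes. Neither difference is exact, because the lower Sirt1 spot was called absent on both arrays of the second set. The upper spot of replicate 1 there covered only 53 pixels. The median absolute difference over the 38 genes was 0.31 and 0.28 in these pairs. The 12-month sample with both arrays in the first set had 13.82 and 14.34 for Sirt1, a difference of -0.53, so the pairs across sets differed by more than the pair within a set, though with a single such pair no test was possible.

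Hdac2 differed between the sets by -0.15 (SE 0.05, interval -0.26 to -0.03, limma adjusted p = 0.0651) and did not pass. Its direction depends on the scaling: it was -0.33 with housekeeping scaling, 0.88 with centring on the array median and 0.66 with the local background. Under those settings the median of all tested genes moved by -0.70, 0.63 and 0.04, so relative to it Hdac2 stood at 0.38, 0.25 and 0.61. Sirt1 kept its direction under each of them (-2.42, -1.25 and -1.38, or -1.72, -1.88 and -1.43 relative to that median). The housekeeping signal hardly differed between the sets (median 62566.5 in the second, 62891.5 in the first). The median gene signal of an array did differ (11659.5 and 21220.5). Scaling on the housekeeping genes, as in the authors' ratios, therefore leaves most of that brightness difference in the values.

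**Figure D3:**
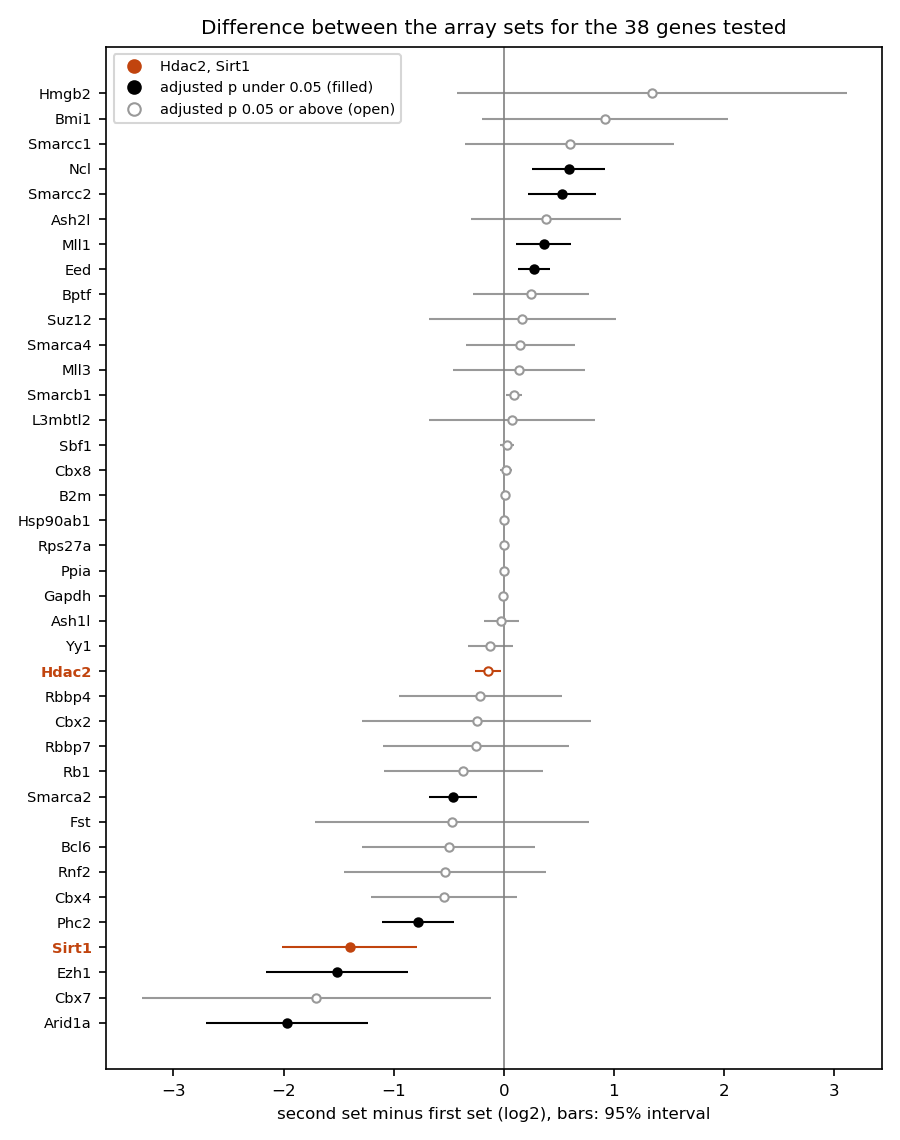
Difference between the array sets (second minus first, log2, x axis) with 95% intervals for the 38 tested genes (y axis, in order of the difference), from limma with age as a term, filled where the adjusted p is under 0.05. Sirt1 lies at -1.40 among the 5 genes called lower, and Hdac2 at -0.15 is not called.

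Sirt1 was also compared between ages within each set. In the second set it averaged 13.09 ± 0.29 over the 3 samples of 1 month and 13.21 ± 0.35 over the 2 of 24 months (SD), and the single 12-month sample read 13.21. At 24 months it differed from 1 month by 0.11 (interval -0.65 to 0.87), against -0.76 over all samples. This 0.11 is a mean of spots that went opposite ways: the upper spot averaged 14.34 at 24 months and 13.56 at 1 month, a difference of 0.78, and the lower spot, absent on all of these arrays, averaged 12.07 and 12.62, a difference of -0.56. At 12 months the difference was 0.11 (interval -0.85 to 1.07) from an array without a present call. In that set limma called 0 of 38 genes (0%) at 24 months, 1 (2.63%) at 12 months and 1 (2.63%) over ages, Rnf2 in both, and 0 (0%) for the slope.

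In the first set Sirt1 averaged 14.83 ± 0.52 over the 3 samples of 1 month, 14.79 ± 0.36 over the 3 of 3 months, 14.55 ± 0.39 over the 3 of 6 months and 13.81 ± 0.38 over the 2 of 12 months (SD). Its 12-month samples, at 14.08 and 13.54, lay below all 9 younger samples of the set, which began at 14.11, as they did for 2 of 38 genes (5.26%), Cbx2 and Sirt1. The gap is narrow and rests on averaging the repeat arrays of replicate 2, of which one read 14.34. In the authors' deposited table the ages overlapped, with 0.425, 0.395 and 0.290 on the arrays of 12 months and 0.230 on a 6-month array. The difference from 1 month was -1.02 (SE 0.37, interval -1.88 to -0.17, limma adjusted p = 0.473) and did not pass. At 3 and 6 months it was -0.04 (interval -0.80 to 0.73) and -0.28 (interval -1.05 to 0.48), against 0.83 and 0.59 over all samples. Limma called 0 of 38 genes (0%) at 3 months, 3 (7.89%) at 6 months, 1 (2.63%) at 12 months, 2 (5.26%) over ages and 0 (0%) for the slope, and the called genes were Rbbp4, Fst and Sbf1.

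With the set as a term over all 18 arrays, Sirt1 differed from 1 month by 0.13 at 3 months (SE 0.33), -0.11 at 6 months (SE 0.33), -0.59 at 12 months (SE 0.29, limma adjusted p = 0.722) and -0.06 at 24 months (SE 0.38). Its slope per doubling of age was then -0.09 (SE 0.07), beside 0.03 (SE 0.05) in the second set alone and -0.24 (SE 0.10, interval -0.46 to -0.02, limma adjusted p = 0.480) in the first set alone. Whether the 12-month difference is unlike between the sets could not be judged, because the second set has 1 sample of that age and both of its Sirt1 spots were called absent. For Hdac2 the differences with the set as a term lay between -0.14 at 3 months (interval -0.28 to -0.00, limma adjusted p = 0.446) and 0.01 at 24 months. In that fit limma called 0 of 38 genes (0%) at every age and for the slope.

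**Figure D4:**
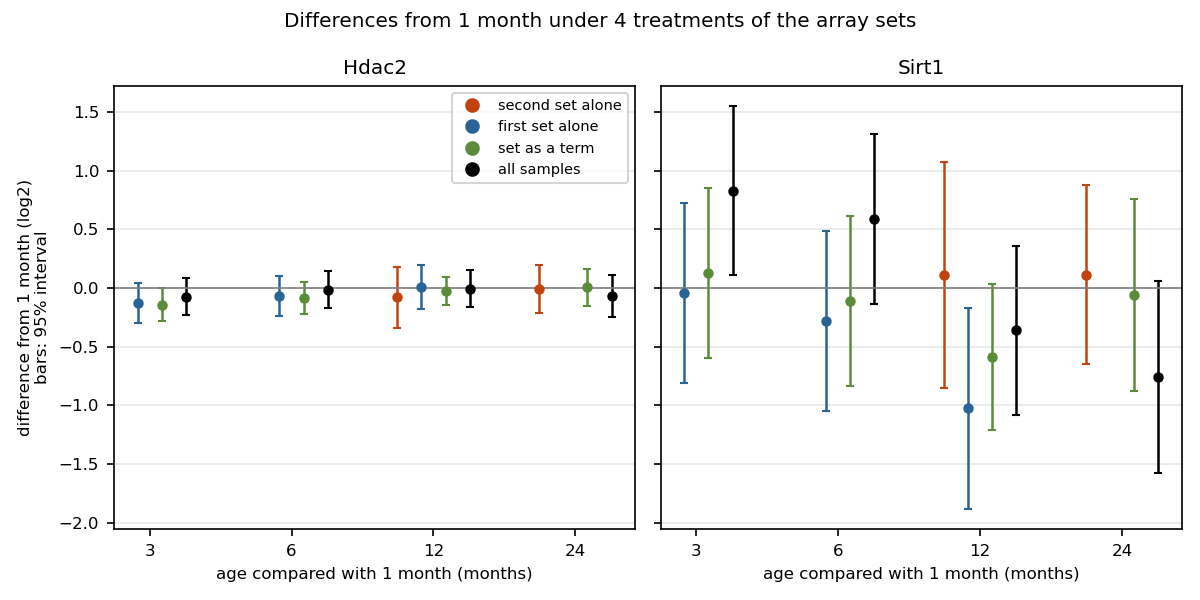
Difference from 1 month (log2, y axis) of Hdac2 and Sirt1 at 3, 6, 12 and 24 months (x axis) with 95% intervals from limma, for the second set alone, the first set alone, the set as a term and all samples. For Sirt1 at 24 months the value is 0.11 in the second set and -0.76 over all samples, and at 12 months it is -1.02 in the first set.

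The authors' deposited table gives each gene as a ratio to the median housekeeping signal of its array. In that table Sirt1 ran from 0.125 to 0.245, with a median of 0.165, over the 6 arrays of the second set and from 0.230 to 0.890, with a median of 0.600, over the 12 of the first. The arrays of 24 months held 0.245 and 0.155 there. In the authors' deposited table Hdac2 ran from 0.615 to 0.955 in the second set and from 0.780 to 0.980 in the first, so both genes overlapped between the sets on that scale, Sirt1 only through the lowest array of the first set.

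Of the other genes named as subunits or partners of deacetylase complexes, Rbbp4 and Rbbp7, histone-binding proteins of the Sin3, NuRD and Polycomb 2 complexes, were on the array and tested. Together with the members they make 4 tested genes, of which limma called 0 against 1 month over all samples. Over all genes tested it called 0 of 38 (0%) at 3, 12 and 24 months and 1 of 38 (2.63%) at 6 months, so this count does not set the list apart. Over all samples the median difference of these 4 genes was 0.31 at 3 months, -0.46 at 6 months, -0.21 at 12 months and -0.35 at 24 months. The medians over all genes tested were -0.00, -0.00, 0.00 and -0.00, on arrays given the same distribution by quantile normalisation. With the set as a term the medians of the 4 genes were 0.17, -0.57, -0.35 and -0.03. In the second set alone the median at 24 months was 0.05, with 2 genes lower and 2 higher. Rbbp4 differed from 1 month by -0.91 at 6 months (SE 0.28, limma adjusted p = 0.0839) and Rbbp7 by -1.06 (SE 0.35, limma adjusted p = 0.0866). In the first set alone Rbbp4 passed at 6 months (-1.15, SE 0.19, limma adjusted p = 0.0154) and at 12 months (-1.17, SE 0.22, limma adjusted p = 0.0283), while Sirt1 at 12 months did not.

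Among Polycomb 2 genes, whose products bind deacetylases, Eed, Ezh1 and Suz12 were tested and Ezh2, detected in 1 of 15 samples, was not. Limma called 0 of the 3 against 1 month at any age over all samples, beside 0 of 38 genes (0%) at 3, 12 and 24 months and 1 of 38 (2.63%) at 6 months. Between the sets, where 9 of 38 genes (23.7%) were called, Ezh1 was called lower and Eed higher. Eed missed with housekeeping scaling, the authors' ratios and the local background, and Ezh1 with the local background. Of the DNA-binding repressors that recruit deacetylases, Yy1, Bcl6 and Rb1 were tested and E2f6, detected in 1 sample, was not. None of those 3 passed in any comparison. Their set differences were -0.12 (Yy1, SE 0.09), -0.50 (Bcl6, SE 0.36) and -0.37 (Rb1, SE 0.33), beside a median of 0.00 over all genes tested.

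Across the 15 samples the tested genes most like Hdac2 by Pearson r of the normalised level were Yy1 (0.82), Rb1 (0.63) and Bmi1 (0.59). Within the 11 samples of the first set these values were 0.85, 0.70 and 0.88. For Sirt1 they were Arid1a (0.74), Phc2 (0.74) and Ezh1 (0.74), and within the first set -0.04, 0.14 and -0.33. All 3 of the genes most like Sirt1 were called lower in the second set and none of the 3 most like Hdac2 was called between the sets. Hdac2 and Sirt1 correlated at 0.27 over 15 samples and at 0.17 in the first set. These correlations describe genes that were read on the same arrays, and have no test.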

How the data were processed

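RNA was amplified and biotin-labelled, and hybridised to a 1-colour oligonucleotide array, per the labels. The authors deposited a spot intensity summed over the spot area, a local background, an area, a present or absent call and a bleeding mark for each spot, per the file headers. The deposited series table holds a ratio to the median housekeeping signal as the authors scaled it; the ratios of both genes lie within 0.00707 of recomputed ones. Of the 23 arrays in the deposited sheets, 5 are of other samples and were not used. The scanner and its software were not given in the sources used here.

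Intensity was divided by area, corrected by normexp without the local background (offset 50), quantile normalised over gene spots, taken to log2, then averaged over a gene's spots and a sample's arrays. limma 3.58.1 (R 4.3.3) fitted 5 ages over 15 samples, with Benjamini-Hochberg adjustment over the 38 genes detected in at least 2 samples, at a threshold of 0.05. Detection needed a present call at 50% or more of a gene's spots. The sets, read from array names and order, were fitted over 18 arrays with age as a term and the sample as a random block. The fits were tested on simulated data.

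Array accessions of both genes match their symbols in RefSeq. Genes named are the 2 members, genes of 3 lists and the 3 tested genes most like each member by Pearson r; Sbf1, Fst, Rnf2, Cbx2 and the genes called between the sets were picked once their values had been seen. The members and lists were chosen with earlier results of these data known. Replicate numbers were not used to pair the samples in the main fits. Deviations of same-numbered samples correlated from -0.42 to 0.40 over 12 pairs, 6 of them over 0.1. These values cannot show whether a shared number stands for a shared origin. Alternatives were other background corrections, scalings, signals, filters, uses of repeat arrays, single spots, the replicate number as a block and leaving out each sample.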

Additional observations from a re-analysis of the deposited data

Results flagged for a closer look

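Of 13 groups examined, the 1-month samples of the 13 tested genes that are members, belong to a list or are most like a member, 1 held a sample far from the others, and chance alone gives about 1 in 20. Phc2, one of the genes most like Sirt1, read 14.63 in 1 of its 4 samples at 1 month and 15.19, 15.20 and 15.25 in the others, a gap of 0.908 of the whole range. Phc2 read lower on every array of the second set than on any of the first. The 1-month samples mix the sets, and replicate 2 was hybridised in the second set alone. The part of the set in this gap was not tested.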

How the results depend on the processing

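The set difference of Sirt1 was negative in all 28 alternatives and passed in 27, from -2.42 to -1.01. It missed with the first array of each sample (-1.14, limma adjusted p = 0.0548). That setting uses fewer arrays and drops the second-set arrays of 1-month replicates 1 and 8, so no sample remains in both sets. Leaving out a sample gave a set difference of -1.74 (without 12-month replicate 3) to -1.02 (without 1-month replicate 8). The F-test of Sirt1 over ages passed in 1 of 33 alternatives, the lower spot alone (limma adjusted p = 0.0368), which was called absent on every array of the second set, and ran from 0.0563 to 0.206 with a sample left out.

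No age difference of either gene passed in any alternative. For Sirt1 the sign turned at 3 months in the first set alone (-0.0393), at 6 months with a set term (-0.11) and within the first set (-0.28), at 12 months in the second set alone (0.11) and with the lower spot alone (0.29), at 24 months in the second set alone (0.11) and with the upper spot alone (0.12), and for the slope in the second set alone (0.0258). Single spots also moved Sirt1 widely without turning it: at 24 months the lower spot gave -1.64, at 12 months the upper spot gave -1.004, at 6 months the upper spot gave 0.054 and the lower 1.12, and at 3 months they gave 0.55 and 1.11. The slope was -0.24 in the first set alone. With the replicate number as a block, 12 months turned to 0.41 for Sirt1 (limma adjusted p = 0.600) and to 0.11 for Hdac2, and 6 months to 0.00206 for Hdac2. The block left 0 genes called at 6 months and changed no other call.

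Hdac2 turned with the local background at 3 months (0.0902), 24 months (0.39), the slope (0.0315) and the set difference (0.66), and with median centring at 12 months (0.28), 24 months (0.70), the slope (0.13) and the set difference (0.88). It also turned at 6 months with the lower spot (0.0378), at 12 months with the sample as a random block (0.0154), the first set alone (0.0101) and the lower spot (0.0152), and at 24 months with a set term (0.00699). With a sample left out it ran from -0.0514 to 0.0557 at 6 months and from -0.0458 to 0.0648 at 12 months. Its set difference passed in 7 of 28 alternatives, in both directions: as higher with median centring (0.88, limma adjusted p = 0.0112), and as lower with housekeeping scaling (-0.33) and the authors' ratios (-0.28 and -0.26 with pseudocounts of 0.01 and 0.1), and without 3-month replicate 8, 6-month replicate 7 or 12-month replicate 2, with -0.17 to -0.12 over the samples left out. The cause was not tested.

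Called genes between the sets, 9 of 38, numbered 3 with the local background, 21 with median centring and 16 and 15 with the ratios, and 8 to 12 with a sample left out. The 1 gene at 6 months became 2 without background correction and with the first array of each sample, 3 in the first set alone, and 0 with summed signal, either other scaling, the ratios, no filter, the sample as a random block or the set as a term. The 0 over ages became 1 with median centring, 2 in the first set and 1 in the second, and the 0 at 12 months 1 in each set. With a sample left out, the counts at 6 months and over ages ran from 0 to 2. Saturated Hdac2 spots and Sirt1 spots called absent limit what these arrays can show, and the part of array brightness in the set difference was not tested.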
